A study of Mus musculus with 11 samples.

Results

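The genes described here encode subunits of the last complexes of the mitochondrial respiratory chain, namely complex III (symbols starting with Uqcr, and Cyc1), complex IV (Cox4 to Cox8 genes) and the ATP synthase (symbols starting with Atp5). The platform annotation held 43 such symbols on 49 probes, of which 36 genes entered the comparison because at least 1 probe was detected (detection p under 0.05) in at least 5 of the 10 mice. These are 36 of the 9302 genes with a kept probe, with 7 genes in complex III, 14 in complex IV and 15 in the ATP synthase. Adrenal RNA came from 5 homozygous mINDY-KO mice, which carry a deletion allele of Slc13a5 (the plasma membrane citrate transporter mINDY) made by crossing with an Hprt1-Cre line and are therefore deleted in all tissues, and from 5 WT littermates. All mice were males of 12 to 16 weeks on a C57B/6J backcross and on standard chow. The study used adrenals because their medulla makes catecholamines, and each array gave the signal of 25697 probes in 1 colour.

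Complex III (cytochrome bc1) passes electrons from ubiquinol to cytochrome c, complex IV (cytochrome c oxidase) hands them to oxygen, and the ATP synthase uses the resulting proton gradient to make ATP. Apart from a few core subunits encoded in mitochondrial DNA, all subunits are nuclear genes whose proteins are imported, and their levels are tied to each other by assembly into fixed complexes. Complex IV is unusual in having several subunits that come in a common and a tissue-specific isoform, and tissue-specific ones are used for example in heart, skeletal muscle, brown fat, lung or testis. The adrenal cortex is rich in mitochondria, since the first and last steps of steroid synthesis take place in them.

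Some facts of the arrays bear on all values below. WT replicate 1 was run on 2 arrays, which were averaged and counted as 1 mouse. The arrays of mINDY-KO replicates 3 and 4 were the dimmest, with median signals of 127 and 122, against 191 to 238 in the other mINDY-KO mice and 157 to 202 in WT mice. The SD of the log2 signals was 1.51 in replicate 3 and 1.44 in replicate 4, against 1.58 to 1.67 in the other mINDY-KO mice and 1.51 to 1.60 on the WT arrays. Levels are given in log2 units above the mean of the array, after each array was set to the same mean and SD, and differences are mINDY-KO minus WT on this scale. Slc13a5 itself was not above background on any array (detection p 0.0714 to 0.357 in mINDY-KO and 0.203 to 0.312 in WT), so that its probe does not check the genotypes. All 8 adrenocortical and 8 of the 9 chromaffin cell markers on the array were kept. In RNA of whole adrenals, fewer cells of a type and less RNA per cell cannot be told apart.

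Most subunit genes had a slightly higher mean in mINDY-KO adrenals, and no gene passed the test. Of the 36 genes, 32 had a higher mean in mINDY-KO mice, where 43.6% of all genes with a kept probe did. The subunit genes were bright, with a median level of 4.03 against 0.96 over all genes. Shares over all genes, here and below, are not matched for level. The median difference over the 36 genes was 0.11, against -0.019 over all genes. It was 0.13 in complex III, 0.11 in complex IV and 0.11 in the ATP synthase, with 6 of 7, 11 of 14 and 15 of 15 genes higher. Differences ran from -0.097 (Cox7a1) to 0.30 (Cox5a). With limma, 0 of the 36 genes had an adjusted p under 0.05, where 2 of 13341 probes (0.015%) and 2 of 9302 genes (0.0215%) did. At an unadjusted p under 0.05, 6 genes were higher in mINDY-KO mice (Cox5a, Uqcrh, Atp5a1, Atp5g2, Uqcrb and Cyc1), where 4.33% of all genes were, and 0 were lower, where 7.01% were. In no gene did all 5 mINDY-KO mice exceed all WT mice, which 0.753% of all genes did, and in none did they all stay below, which 1.38% did. The 4 genes with a lower mean were Uqcrc1 and the tissue-specific isoforms Cox6b2, Cox7a1 and Cox8b. Each gene is represented by its brightest kept probe, and the 4 genes with several kept probes (Atp5j, Cox6a1, Cox6b1 and Uqcr10) gave the same sign on all of them. Subunit genes of this kind have processed copies in the genome, and whether a probe also reads such a copy was not tested.

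**Figure D1:**
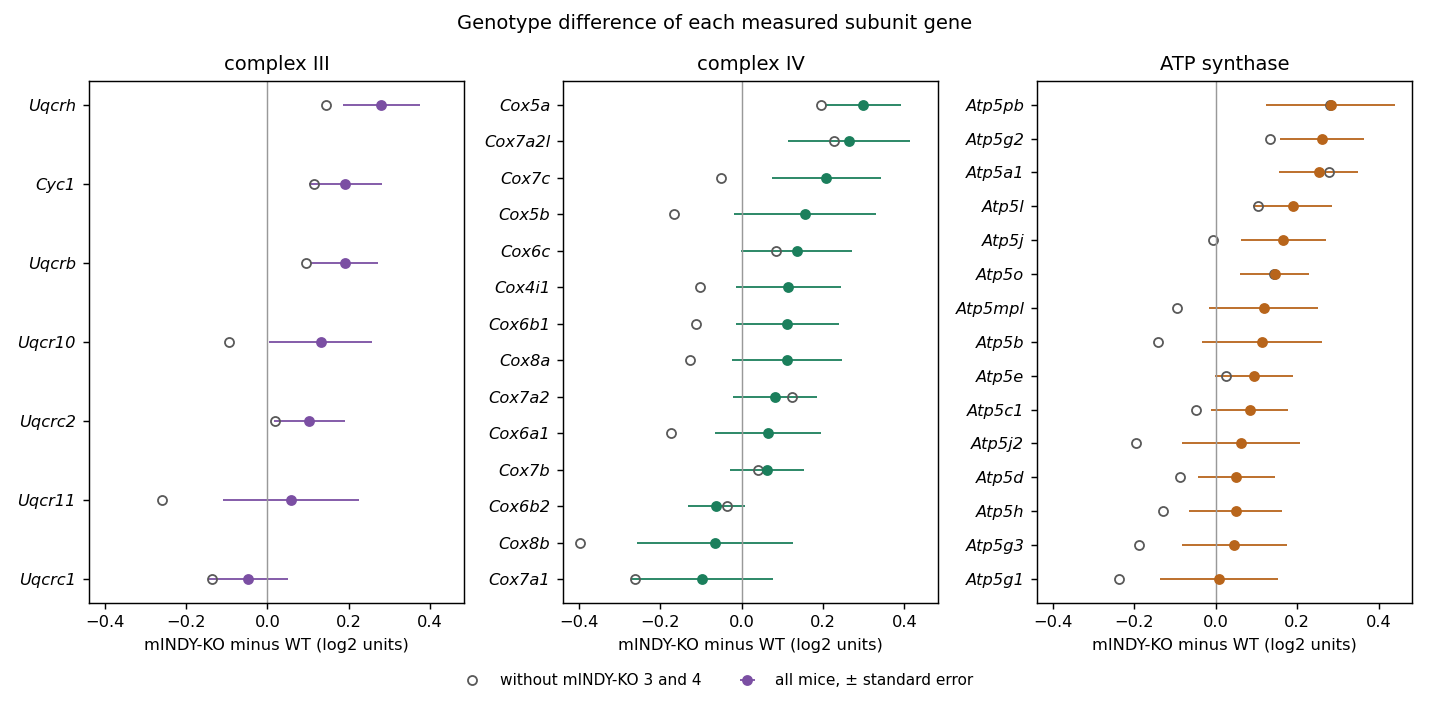
Difference in mean level between 5 mINDY-KO and 5 WT mice (horizontal axis, log2 units) for each of the 36 subunit genes, grouped by complex. Filled points with bars are the difference ± standard error over all mice, and open points are the difference without mINDY-KO replicates 3 and 4. Filled points lie right of 0 for 32 genes and open points for 15.

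In complex III, the hinge protein gene Uqcrh, whose acidic product helps cytochrome c to dock, differed most. Uqcrh was at 5.26, 5.26, 5.54, 5.61 and 5.18 in mINDY-KO replicates 1 to 5, against 4.91, 5.07, 5.10, 5.19 and 5.20 in WT replicates 1 to 5. Replicates 1 to 4 of the mINDY-KO mice exceeded all WT mice and replicate 5 lay within the WT range. The difference was 0.28 (standard error 0.094, unadjusted p = 0.00985, limma adjusted p = 0.309). Uqcrb, which encodes a small subunit near the ubiquinone site, was at 4.04, 4.12, 4.23, 4.32 and 3.96 in mINDY-KO mice and at 3.94, 3.93, 3.81, 4.10 and 3.95 in WT mice. Its groups overlapped through WT replicate 4, with 3 mINDY-KO mice over the whole WT range and a difference of 0.19 (standard error 0.083, limma adjusted p = 0.422). Cyc1, cytochrome c1, the subunit that gives electrons to cytochrome c, was at 3.65, 3.71, 3.99, 3.92 and 3.93 in mINDY-KO mice, against 3.50, 3.64, 3.75, 3.83 and 3.53 in WT mice. Here mINDY-KO replicates 3 to 5 exceeded all WT mice, and the difference was 0.19 (standard error 0.089, unadjusted p = 0.0492, limma adjusted p = 0.455). Of the core proteins, Uqcrc2 averaged 4.90 ± 0.17 in mINDY-KO and 4.80 ± 0.097 in WT mice (SD, n = 5 each), a difference of 0.10 (limma adjusted p = 0.706). Uqcrc1 averaged 3.95 ± 0.13 in mINDY-KO and 3.998 ± 0.20 in WT mice, with WT replicate 1 the highest of all mice at 4.31. The small subunit genes Uqcr10 and Uqcr11 had differences of 0.13 and 0.057 with standard errors of 0.13 and 0.17. The iron-sulfur protein gene Uqcrfs1 was detected in 1 mouse and Uqcrq in none, so both have no comparison.

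In complex IV, the gene for the matrix-side subunit Cox5a had the smallest p of all members. Cox5a was at 4.06, 4.17, 4.41, 4.24 and 3.94 in mINDY-KO replicates 1 to 5 and at 3.68, 3.91, 3.77, 3.99 and 3.98 in WT replicates 1 to 5. All mINDY-KO mice except replicate 5 exceeded all WT mice, and WT replicate 1 was the lowest of all. The difference was 0.30 (standard error 0.094, unadjusted p = 0.00643, limma adjusted p = 0.270). Cox7a2l, which the symbol rule takes in although its product is known mainly as a factor that joins complexes III and IV in supercomplexes, was at 3.70, 3.97, 4.22, 3.66 and 3.88 in mINDY-KO mice, against 3.16, 3.49, 4.04, 3.88 and 3.53 in WT mice. WT mice spread more widely here than mINDY-KO mice, and 1 mINDY-KO mouse exceeded all WT mice (difference 0.26, standard error 0.15, limma adjusted p = 0.558). Cox7c, a small membrane subunit, was at 4.86, 4.80, 5.45, 5.45 and 4.75 in mINDY-KO mice, against 4.88, 4.89, 4.74, 4.89 and 4.87 in WT mice. Its difference of 0.21 (standard error 0.13, limma adjusted p = 0.615) came with replicates 3 and 4 far above the other 3 mINDY-KO mice, which lay within the WT range. The zinc-binding subunit gene Cox5b repeated that form, at 5.95 and 6.03 in mINDY-KO replicates 3 and 4, 5.14 to 5.26 in the other mINDY-KO mice and 5.02 to 5.62 in WT mice. Cox6c had a difference of 0.14 (standard error 0.14), and no mINDY-KO mouse above WT replicate 5. The common isoform Cox4i1, through which ATP acts on the enzyme, had a difference of 0.12 (standard error 0.13, limma adjusted p = 0.794). Cox6a1 and Cox7b, small subunits of the membrane part, had differences of 0.064 (standard error 0.13) and 0.063 (standard error 0.091).

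In the ATP synthase, all 15 genes had a higher mean in mINDY-KO mice, by 0.0078 to 0.28. Atp5a1, the alpha subunit of the catalytic head, was at 2.77, 2.81, 2.62, 2.69 and 2.58 in mINDY-KO replicates 1 to 5, against 2.29, 2.22, 2.37, 2.60 and 2.73 in WT replicates 1 to 5. The mINDY-KO mice lay close together, WT replicates 1 to 3 lay under all of them and WT replicates 4 and 5 among them. The difference was 0.25 (standard error 0.098, unadjusted p = 0.0213, limma adjusted p = 0.378). Atp5b, the beta subunit that carries the catalytic sites beside alpha, averaged 6.50 ± 0.40 in mINDY-KO and 6.39 ± 0.064 in WT mice (SD, n = 5 each), and the mINDY-KO mice spread on both sides of the WT range, with 2 above and 2 below it. Subunit c, which forms the rotating ring of the membrane part, has 3 genes that encode the same mature protein with different import sequences. Of these, Atp5g2 was at 3.13, 3.10, 3.48, 3.33 and 3.03 in mINDY-KO mice and at 2.71, 3.02, 2.95, 3.19 and 2.90 in WT mice. All mINDY-KO mice lay above WT replicates 1, 2, 3 and 5, and 2 also lay above WT replicate 4 (difference 0.26, standard error 0.10, unadjusted p = 0.0238, limma adjusted p = 0.380). Atp5g3 and Atp5g1 had differences of 0.045 (standard error 0.13) and 0.0078 (standard error 0.14), and the contrast between the 3 genes was not tested. Atp5pb, subunit b of the outer stalk, averaged 3.42 ± 0.21 in mINDY-KO and 3.14 ± 0.39 in WT mice, a difference of 0.28 (standard error 0.16, limma adjusted p = 0.553). Atp5pb and Cox7a2l shared their extremes in WT mice, with replicate 1 lowest (2.65 and 3.16) and replicate 3 highest (3.63 and 4.04). Atp5l, subunit g of the membrane part, had a difference of 0.19 (standard error 0.097, limma adjusted p = 0.504), and Atp5o, which joins the head to the outer stalk, one of 0.14 (standard error 0.086, limma adjusted p = 0.578). The remaining members had smaller differences for their standard errors. Atp5j (the coupling factor of the stalk) was at 0.17, Atp5mpl (a small membrane proteolipid) at 0.12, Atp5e (epsilon) at 0.094, Atp5c1 (gamma, the turning shaft) at 0.083, Atp5j2 (subunit f) at 0.062, Atp5d (delta) at 0.050 and Atp5h (subunit d) at 0.049, with limma adjusted p of 0.603 to 0.918. Atp5k, subunit e, was detected in no mouse.

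**Figure D2:**
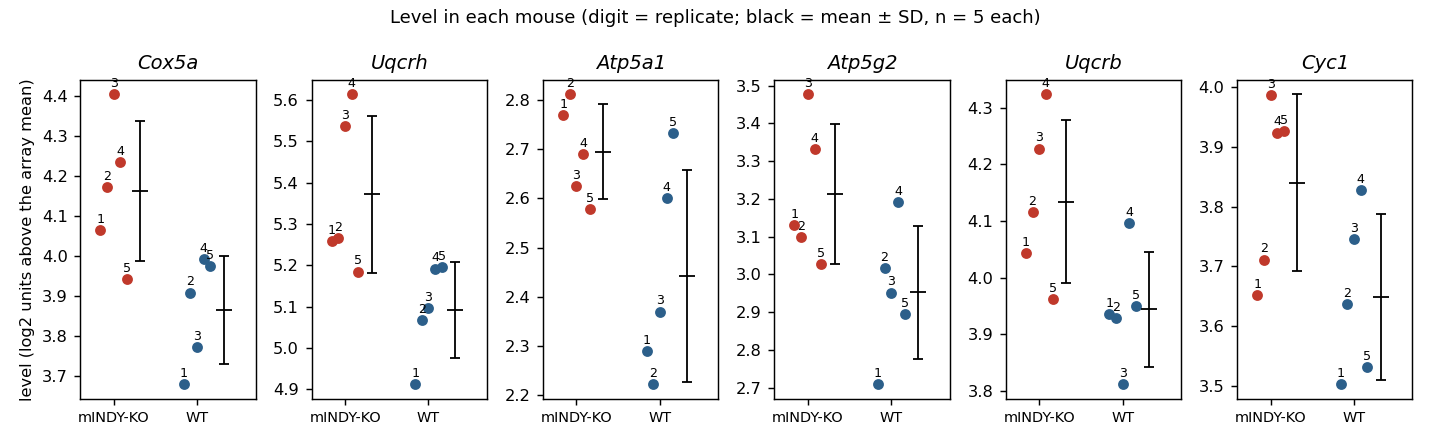
Level of the 6 genes of smallest p in each mouse (vertical axis, log2 units above the array mean, a separate range for each gene), mINDY-KO mice left in red and WT mice right in blue, with digits for the replicate and black bars for the mean ± SD (n = 5 each). In all 6 panels the groups overlap, and for Cox5a and Uqcrh only mINDY-KO replicate 5 lies within the WT range.

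Of the 7 tissue-specific isoform genes of complex IV listed for the comparison with a common isoform, 3 were measured. Cox4i2 (lung) was detected in 3 mice, Cox6a2 (heart and skeletal muscle) in 2, and the testis genes Cox7b2 and Cox8c in none. Cox4i2 lay nearest to the limit of 5 mice from outside, whereas all 36 members were detected in all 10 mice. Cox7a1, the heart and muscle isoform that brown fat also uses, was at 1.38, 1.02, 1.24, 1.49 and 0.46 in mINDY-KO replicates 1 to 5 and at 1.15, 1.55, 0.80, 1.24 and 1.34 in WT replicates 1 to 5. mINDY-KO replicate 5 lay under all WT mice, and the other 4 mINDY-KO mice lay within the WT range. Cox8b, which in mice belongs to heart, skeletal muscle and brown fat, was at 2.60, 2.40, 3.03, 3.39 and 2.13 in mINDY-KO mice, against 2.92, 2.93, 2.53, 2.53 and 2.98 in WT mice. The mINDY-KO mice spread beyond the WT range at both ends, with an SD of 0.50 against 0.23 in WT. Cox6b2, known from testis, was at -0.25, -0.08, -0.35, -0.22 and -0.33 in mINDY-KO mice and at -0.14, -0.16, -0.23, -0.16 and -0.22 in WT mice. Here 3 mINDY-KO mice lay below every WT mouse and 1 above, with an SD of 0.11 against 0.042 in WT. The Cox6b2 probe was dim, with a mean signal of 276, and a second Cox6b2 probe was detected in no mouse. The common partners Cox6b1, Cox7a2 and Cox8a had differences of 0.11, 0.082 and 0.11, with standard errors of 0.13, 0.10 and 0.14, and none passed the test.

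The tissue-specific isoforms were set against their common partners within each mouse, so that a constant effect of a probe falls out of the comparison. The level of Cox6b2 minus that of Cox6b1 averaged -5.16 ± 0.37 in mINDY-KO and -4.99 ± 0.10 in WT mice (SD, n = 5 each). The genotypes differed by -0.17 in this measure (95% interval -0.60 to 0.21, two-sided exact permutation test, p = 0.349). Cox7a1 minus Cox7a2 averaged -0.21 ± 0.34 in mINDY-KO and -0.032 ± 0.19 in WT mice, and differed by -0.18 (95% interval -0.60 to 0.24, exact permutation p = 0.341). Cox8b minus Cox8a was at -2.67, -2.74, -2.67, -2.50 and -3.04 in mINDY-KO mice, against -2.47, -2.50, -2.54, -2.83 and -2.39 in WT mice. Here 4 of the 5 mINDY-KO mice lay below the WT mean, with a difference of -0.18 (95% interval -0.44 to 0.092, exact permutation p = 0.159). Adjusted over the 3 pairs, p was 0.349 for each, and 0.00794 is the smallest p that 5 and 5 mice allow. All 3 differences were negative, and each 95% interval included 0. Without mINDY-KO replicates 3 and 4 the Cox6b2 pair turned to 0.077, while the Cox7a1 pair stood at -0.39 and the Cox8b pair at -0.27 (adjusted exact permutation p = 0.161 for both).

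**Figure D3:**
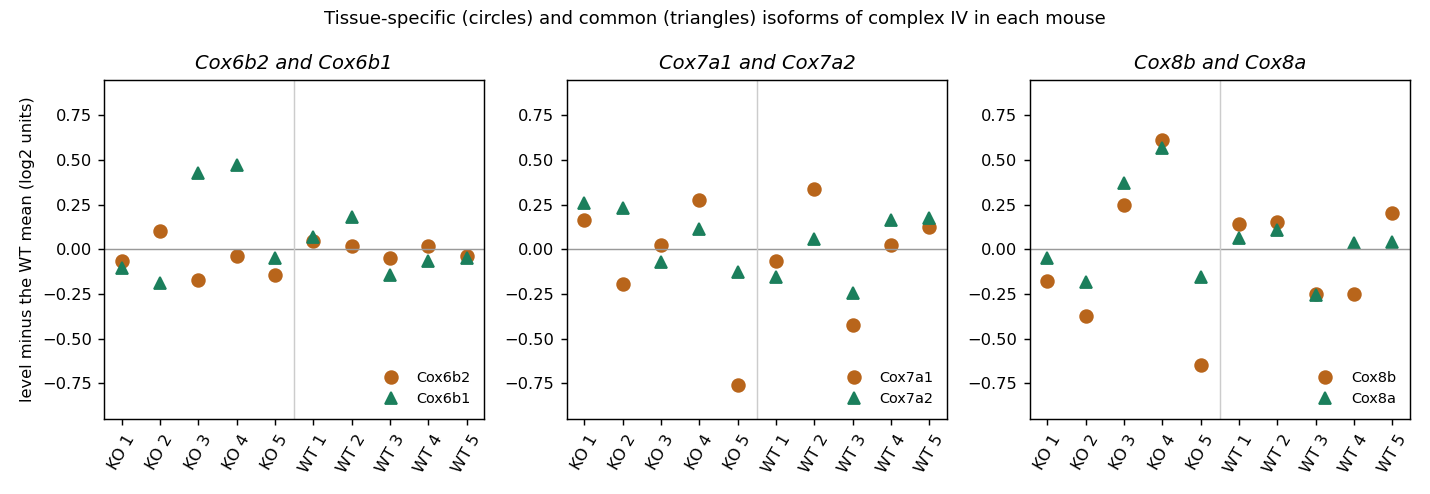
Level of a tissue-specific isoform (circles) and of its common partner (triangles) in each mouse, as the difference from the WT mean of that gene (vertical axis, log2 units), mINDY-KO mice left of the line and WT mice right. The gap between Cox8b and Cox8a is widest in mINDY-KO replicate 5, and Cox6b1 is high in mINDY-KO replicates 3 and 4 and Cox6b2 is not.

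Markers of brown fat and striated muscle, the tissues known for Cox7a1 and Cox8b, were read in the same mice. Of the 5 brown adipocyte markers on the array, 0 were kept, and Ucp1, Dio2 and Elovl3 were detected in no mouse. Their summed level on a linear scale was 2.31 to 2.49 in mINDY-KO and 2.34 to 2.49 in WT mice. Of 14 striated muscle markers, 9 were detected in no mouse and Tnni2 alone was kept (sum 6.28 to 6.97 in mINDY-KO and 6.52 to 6.76 in WT mice). Cox7a1 and Cox8b were thus measured in all mice while the defining markers of brown fat and striated muscle were at or near background. General adipocyte markers, 4 of 7 kept, summed to 4.26 to 8.41 in mINDY-KO and 4.02 to 4.98 in WT mice. Their sum was highest in mINDY-KO replicate 5, the mouse with the lowest Cox7a1 and Cox8b, and their part in these values was not tested.

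The higher means came largely with mINDY-KO replicates 3 and 4, the arrays of lowest median signal, when array mean and SD were set equal. These mice were the highest pair of the 5 mINDY-KO mice in 26 of the 36 genes, as they were in 12.9% of all genes. Over all genes, the median level was lowest in these mice, at 0.86 and 0.82. It was 0.96 to 1.01 in the other mINDY-KO mice and 0.97 to 1.00 in WT mice. mINDY-KO replicate 4 was the highest of all 10 mice in 20 members and replicate 3 in 9, against 8.65% and 6.91% of all genes. The lowest mouse was WT replicate 3 in 10 members (12.3% of all genes) and WT replicate 1 in 8 (11.6%). The SD was larger in mINDY-KO than in WT mice in 27 of 36 genes (56.9% of all genes), with a median SD of 0.23 in mINDY-KO and 0.15 in WT. Summed adrenocortical markers were 155 to 257 on a linear scale in mINDY-KO and 183 to 212 in WT mice, highest in mINDY-KO replicate 4. Among the mINDY-KO mice the sums of chromaffin cell markers (158 to 263, against 178 to 277 in WT) and of red blood cell markers (39.6 to 78.1, against 40.9 to 73.4 in WT) were highest in that replicate too. These sums weigh bright genes most, and single markers differed. Among the mINDY-KO mice Cyp11b1 (6.56), Star (4.371) and Npy (5.844) were highest in replicate 4. Th (4.535) and Dbh (3.284) were highest in replicate 5, and Pnmt (3.461) and Cyp21a1 (6.619) in replicate 3. The part of these markers in the result was not tested. Leaving out replicates 3 and 4 was done only with array mean and SD set equal. Without them, 15 of 36 genes were higher in mINDY-KO mice (50.1% of all genes). The median difference was -0.050, against 0.00046 over all genes. At an unadjusted p under 0.05, 1 member was then higher (Atp5a1), where 6.06% of all genes were, and 3 were lower (Uqcr11, Cox8b and Atp5g1), where 5.28% were. None passed after adjustment (smallest limma adjusted p of these 0.352). The same form was present outside these complexes. Of 32 complex I genes 25 were higher, with the pair highest in 25, and of 57 cytosolic ribosomal protein genes 49 were higher, with the pair highest in 47. Without the pair these counts were 10 of 32 and 17 of 57.

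The place of both mice depended on the scaling. With array mean and SD set equal, the median over the 36 genes was 4.11, 4.14, 4.34, 4.32 and 3.95 in mINDY-KO replicates 1 to 5, against 4.12, 4.13, 3.98, 4.10 and 4.10 in WT replicates 1 to 5. Replicates 3 and 4 stood above all other mice. With the array mean alone set equal, it was 4.32, 4.41, 4.20, 3.98 and 3.98 in mINDY-KO mice and 4.003, 4.17, 3.99, 4.15 and 4.18 in WT mice, so that replicates 1 and 2 were the highest and the pair held the top places in 4 of 36 genes (4.4% of all genes). With quantile normalization it was 12.46, 12.49, 12.48, 12.41 and 12.23 in mINDY-KO mice, against 12.37, 12.41, 12.29, 12.43 and 12.38 in WT mice, with the pair highest in 11 genes (14.5% of all genes). The count of genes higher in mINDY-KO mice was 26 of 36 with quantile normalization, with a median difference of 0.053, and 31 of 36 with the mean alone, with a median of 0.093. Over all probes at an unadjusted p under 0.05, 572 of 1459 were higher in mINDY-KO on the first scale and 766 of 1553 with quantile normalization. Uqcr11, Cox6a1, Atp5g1, Atp5g3, Atp5h and Atp5j2 had a lower mean in mINDY-KO mice with quantile normalization.

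**Figure D4:**
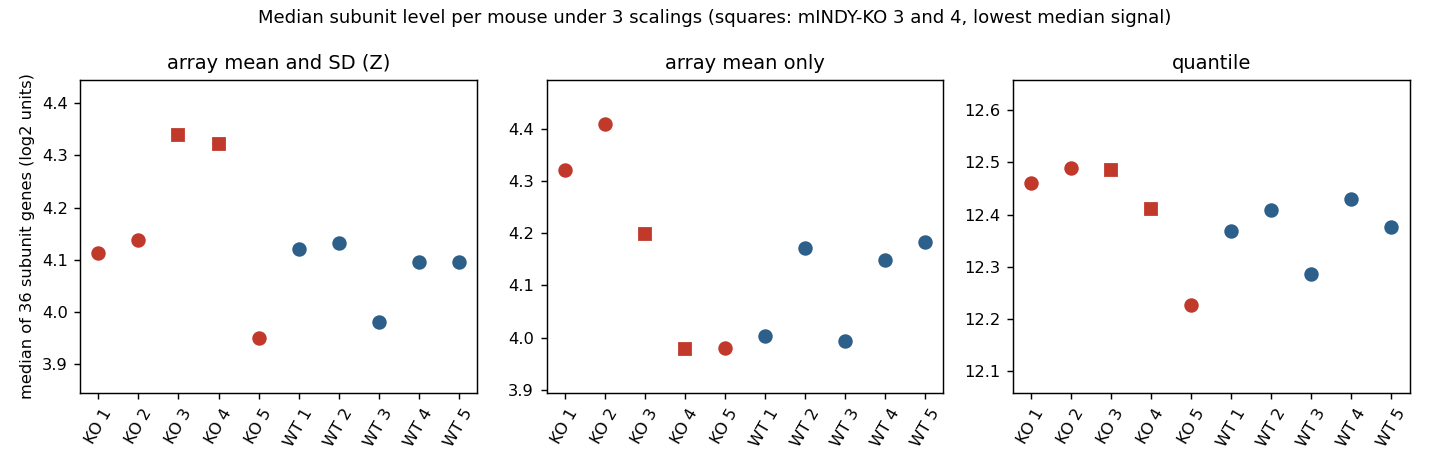
Median level of the 36 subunit genes in each mouse (vertical axis, log2 units, the same span in each panel) under 3 scalings of the arrays, mINDY-KO mice in red at left and WT mice in blue at right, with squares for mINDY-KO replicates 3 and 4. These 2 mice are the highest with array mean and SD set equal (4.34 and 4.32) and not with the array mean alone (4.20 and 3.98).

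With array mean and SD set equal, the genes fell apart in how far they rested on mINDY-KO replicates 3 and 4. The pair was not left out with the other scalings. A group of 15 genes had a higher mean in mINDY-KO mice under every alternative tried. Their differences were 0.063 to 0.30 over all mice on the first scale, 0.019 to 0.28 without replicates 3 and 4, and 0.0053 (Cox7b) to 0.41 (Atp5pb) over all alternatives. They comprise 4 of complex III (Uqcrh, Uqcrb, Cyc1, Uqcrc2), 5 of complex IV (Cox5a, Cox6c, Cox7a2, Cox7b and Cox7a2l) and 6 of the ATP synthase (Atp5a1, Atp5e, Atp5g2, Atp5l, Atp5o and Atp5pb). Replicates 3 and 4 were the highest mINDY-KO mice in 7 of them. Without the pair Atp5a1 and Atp5pb stood at 0.28 each, Cox7a2l at 0.23 and Cox5a at 0.19. In another 17 genes the sign turned without the pair, with Uqcr11 at -0.26 the lowest and Atp5j at -0.0070 the nearest to 0. The pair was highest in all 17, which their choice favours. A higher mean can turn only where the pair averaged above the other mINDY-KO mice. Atp5b, for example, stood at -0.14, Cox5b at -0.17, Cox4i1 at -0.10 and Uqcr10 at -0.094. These groups were formed from the values and carry no test. The share of all genes in either group was not computed, so neither count can be set against it. Cox6b2 was lower under every alternative (-0.10 to -0.034).

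**Figure D5:**
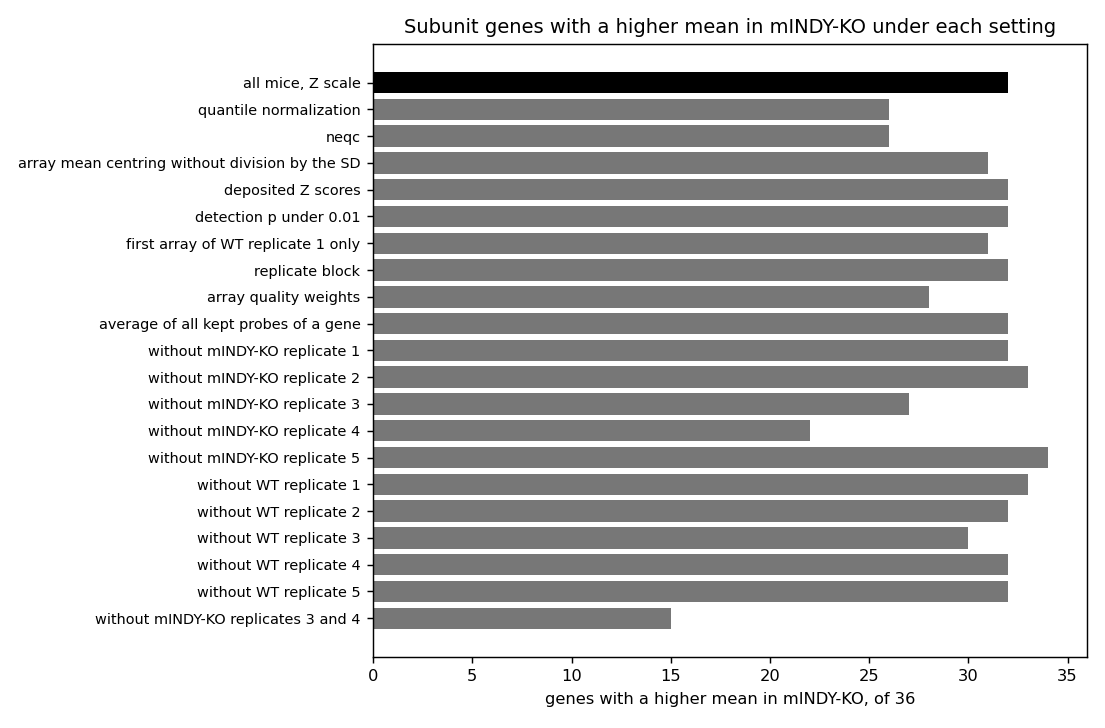
Number of the 36 subunit genes with a higher mean in mINDY-KO mice (horizontal axis, count) under each setting, all mice on the first scale at the top in black. On the first scale, the count lies between 22 and 34 when 1 mouse is left out and is 15 without mINDY-KO replicates 3 and 4.

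Factors that assemble these complexes gave mostly small differences, and none passed the test. Of 17 measured complex IV assembly genes, 12 had a higher mean in mINDY-KO mice (43.6% of all genes). The median difference was 0.069, against -0.019 over all genes. At an unadjusted p under 0.05, 3 were higher (4.33% of all genes) and 0 lower (7.01%). Cox20, which escorts a mitochondrially encoded subunit during assembly, was at 2.58, 2.62, 2.46, 2.67 and 2.48 in mINDY-KO mice and at 2.31, 2.40, 2.19, 2.31 and 2.48 in WT mice (difference 0.22, standard error 0.075, limma adjusted p = 0.311). Coa6, which helps to bring copper to the enzyme, averaged 2.36 in mINDY-KO and 2.14 in WT mice (difference 0.23, standard error 0.081, limma adjusted p = 0.325). In both genes replicates 3 and 4 were not the highest mINDY-KO pair, and WT replicate 5 was the highest WT mouse. That pair was highest in 4 of the 17 genes (12.9% of all genes), and 12 of 17 were also higher without it (50.1% of all genes). Of 4 complex III assembly genes 1 was higher (43.6% of all genes), with Bcs1l, which inserts the iron-sulfur protein, at -0.075 and Uqcc2 at 0.036. Atpif1, which inhibits the ATP synthase when it runs backwards, averaged 5.32 in mINDY-KO and 5.15 in WT mice (difference 0.17, standard error 0.12, limma adjusted p = 0.652). Atpaf2, an assembly factor, had a difference of -0.065 on its brightest probe and of 0.052 on its other kept probe. Cycs, cytochrome c, and Hccs, which attaches its heme, had differences of 0.041 and 0.13. The other kept probe of Cycs was at -0.019. Of the supercomplex factors beside Cox7a2l, Higd2a had a difference of 0.12 and Higd1a one of -0.0024.

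Of 10 measured regulators of respiratory chain genes, 8 had a lower mean in mINDY-KO mice (56.4% of all genes), with a median difference of -0.045 and none at an unadjusted p under 0.05. Without mINDY-KO replicates 3 and 4, 3 of the 10 regulators were higher (50.1% of all genes), with a median of -0.029. Of the 36 subunit genes 15 were, with a median of -0.050. A difference between regulators and subunits was not tested. Nrf1, the nuclear respiratory factor that binds promoters of many such genes, was at 1.39, 1.27, 1.39, 1.36 and 1.56 in mINDY-KO replicates 1 to 5, against 1.57, 1.58, 1.48, 1.63 and 1.46 in WT replicates 1 to 5. The mINDY-KO mice other than replicate 5 lay below every WT mouse (difference -0.15, standard error 0.072, unadjusted p = 0.0516, limma adjusted p = 0.464). Ppargc1b, a coactivator of mitochondrial genes, had a difference of -0.14 (standard error 0.079, limma adjusted p = 0.541), and Ppargc1a was detected in 2 mice.

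Promoters of the subunit genes were read for the motifs of the factors that are known to act on them. RefSeq windows (GRCm38.p6, 250 bases before to 50 after the start) were at hand for 29 of the 36 genes, and not for Atp5a1, Atp5mpl, Cox4i1, Cox6c, Cyc1, Uqcrb and Uqcrc2. The NRF1 motif (GCGC, any base, then TGCGC, searched like all motifs on both strands) stood in 7 of 29 genes (24.1%), against 11.5% of 7550 genes with a kept probe and a window. The ETS motif CCGGAAG of GABP stood in 9 (31%, against 19.8%), the YY1 motif AAGATGGCG in 2 (6.9%, against 3.55%) and the ERR motif TCAAGGTCA in 1 (3.45%, against 0.331%). Over all 32851 windows of this length the shares were 4.6% for NRF1, 8.86% for ETS, 1.4% for YY1 and 0.423% for ERR, and no motif contains another. A match of letters is not a site of binding. The 120 bases before the start are printed for genes on which the results turn, with the motifs in capitals: Uqcrh (chr4:116075071-116075190, minus strand) with an ETS motif, Atp5g2 (chr15:102671048-102671167, minus strand) with an NRF1 motif, Cox6a1 (chr5:115348959-115349078, minus strand) with both, and Cox5a (chr9:57521112-57521231, plus strand), Cox7a1 (chr7:30184051-30184170, plus strand) and Cox8b (chr7:140900447-140900566, minus strand) with none.
Uqcrh: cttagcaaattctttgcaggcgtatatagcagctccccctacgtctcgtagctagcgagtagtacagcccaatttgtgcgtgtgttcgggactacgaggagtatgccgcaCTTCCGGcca
Atp5g2: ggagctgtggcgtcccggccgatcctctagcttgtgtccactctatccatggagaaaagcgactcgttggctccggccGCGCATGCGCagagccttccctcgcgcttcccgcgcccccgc
Cox6a1: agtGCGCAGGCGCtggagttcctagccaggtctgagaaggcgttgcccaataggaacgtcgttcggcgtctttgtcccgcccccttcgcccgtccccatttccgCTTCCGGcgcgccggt
Cox5a: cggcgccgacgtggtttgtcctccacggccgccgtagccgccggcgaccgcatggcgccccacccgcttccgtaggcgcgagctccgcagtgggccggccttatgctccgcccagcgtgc
Cox7a1: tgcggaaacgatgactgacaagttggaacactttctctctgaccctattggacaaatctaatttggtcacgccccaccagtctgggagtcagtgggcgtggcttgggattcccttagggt
Cox8b: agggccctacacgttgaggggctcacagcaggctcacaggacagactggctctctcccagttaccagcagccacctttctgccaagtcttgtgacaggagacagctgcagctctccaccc
Of the printed genes with a motif, Uqcrh had a difference of 0.28 and Atp5g2 one of 0.26. Cox6a1, whose promoter holds both motifs, had one of 0.064 (standard error 0.13). Of those whose window holds none of the 4 motifs, Cox5a had the largest difference of all members, 0.30. Cox7a1 was at -0.097 and Cox8b at -0.066. Whether the motifs go with the differences was not tested. In 15 of the 29 genes at least 1 of the 4 motifs was found, and in none of the tissue-specific isoforms Cox6b2, Cox7a1 and Cox8b. The share of all genes with any of the 4 motifs was not computed, so neither count can be set against it.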

How the data were processed

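For the 11 arrays the authors deposited the signal intensity and a detection p-value of each probe, exported from GenomeStudio (2011.1 in the submitters' processing notes), and a Z score that equals the log10 signal minus the array mean, divided by the array SD (largest difference from the recomputed value 0.0102). Z scores were computed again from the signals and multiplied by 1.57, the mean SD of the log2 signals. Probes with a detection p under 0.05 in at least 5 of 10 mice were kept (13341), both arrays of WT replicate 1 were averaged, and a two-sided comparison of genotypes was run with limma (3.58.1, R 4.3.3), with p-values adjusted over all kept probes by the method of Benjamini and Hochberg. The fit was tested on simulated data. The number of arrays limits the precision. Isoform pairs were compared by exact permutation. Slides were not tested, since no source used here names them. Genes named are those of smallest p in each complex (4, 5 and 5), the tissue-specific isoforms with their partners, the ends of the range and up to 2 of each pathway list; the other members and list genes given with values were chosen after their values were seen. Members, lists, tests and alternatives were chosen with earlier results of these data known. The closing section gives the alternatives. Figures were drawn with matplotlib (3.10.9).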

Additional observations from a re-analysis of the deposited data

Results flagged for a closer look

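In 2 of 78 groups of 5 mice, 1 mouse lay farther from the others than the limit of Dixon's test allows (a gap over 0.71 of the range), which chance does in about 1 in 20 groups. Cox7c in WT mice was lowest in WT replicate 3, at 4.742, with the next mouse at 4.866 (gap 0.81 of the range). Cox8a in WT mice was also lowest in WT replicate 3, at 5.067, with the next at 5.357 (gap 0.797 of the range). Without that mouse 30 of the 36 genes were higher in mINDY-KO mice and their median difference was 0.071.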

How the results depend on the processing

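No member was called under any of the 23 alternatives, at an adjusted p under 0.05 or at the study's thresholds. The smallest limma adjusted p of a member was 0.231, not read for those thresholds or for the variance trend. Over all kept probes, 2 passed. With neqc, without a detection filter and without mINDY-KO replicates 3 and 4, 0 passed, with the deposited Z scores 1, with the array mean alone 4, with a variance trend 6, and 111 met the study's thresholds, 0 of them members. The replicate numbers did not pair the mice (correlations of same-numbered mice -0.108 to -0.304, none over 0.1). With the replicate block 1 probe passed, and 32 of 36 members were higher. Leaving out 1 mouse gave 0 to 14 probes, 14 without mINDY-KO replicate 2.

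The count of members higher in mINDY-KO was 22 to 34 when 1 mouse was left out, lowest without mINDY-KO replicate 4, and the median difference was 0.038 to 0.17. Mice were left out on the first scale only. Without mINDY-KO replicates 3 and 4 the count was 15, and the median over all members was -0.050. It was 0.019 in complex III, -0.077 in complex IV and -0.049 in the ATP synthase. The Cox6b2 pair stood at 0.077 without these mice. With neqc, 26 of 36 members were higher, and 709 of 1441 probes at an unadjusted p under 0.05.

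Without replicates 3 and 4 the sign turned for Atp5b (-0.14), Atp5c1 (-0.049), Atp5d (-0.087), Atp5g1 (-0.24), Atp5g3 (-0.19), Atp5h (-0.13), Atp5j (-0.0070), Atp5j2 (-0.20), Atp5mpl (-0.094), Cox4i1 (-0.10), Cox5b (-0.17), Cox6a1 (-0.17), Cox6b1 (-0.11), Cox7c (-0.051), Cox8a (-0.13), Uqcr10 (-0.094) and Uqcr11 (-0.26). With quantile normalization and with neqc it turned for Atp5g1 (-0.074 and -0.075), Atp5g3 (-0.00030 and -0.00034), Atp5h (-0.0010 and -0.00082), Atp5j2 (-0.024 in both), Cox6a1 (-0.017 and -0.018) and Uqcr11 (-0.030 and -0.031). With array weights it turned for Atp5g1 (-0.061), Atp5h (-0.0041), Atp5j2 (-0.0014) and Uqcr11 (-0.012), with the array mean alone for Atp5g1 (-0.013), and with the first array of WT replicate 1 for Atp5g1 (-0.0080). Leaving out 1 mouse turned Atp5b (-0.021 to 0.23), Atp5d (-0.0059 to 0.11), Atp5h (-0.037 to 0.11), Atp5mpl (-0.0021 to 0.21) and Cox8a (-0.0025 to 0.18) without mINDY-KO replicate 4, and Atp5g1 (-0.11 to 0.092), Atp5g3 (-0.048 to 0.13), Atp5j2 (-0.070 to 0.14), Cox6a1 (-0.032 to 0.14) and Uqcr11 (-0.067 to 0.15) without mINDY-KO replicate 3 or 4. Atp5g1 and Uqcr11 also turned without WT replicate 3, Uqcrc1 (-0.092 to 0.029) without WT replicate 1, Cox7a1 (-0.20 to 0.069) without mINDY-KO replicate 5 and Cox8b (-0.24 to 0.079) without mINDY-KO replicate 2 or 5. The causes were not tested.

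Signals of 2 mINDY-KO arrays are low, the genotypes have 5 mice each, and differences of this size lie near the spread between mice.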
